A study of Mus musculus with 10 samples.

Results

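The time course of Tet3 knockout cells given Dkk compares 2 libraries, 1 from day 10 and 1 from day 6 of differentiation, of 10 libraries in the whole series. A gene was compared when it reached 1 RPKM (a read count divided by the length of the transcript and by the depth of the library) in either library, which 12127 of the 21937 genes in the table did. Its change is given as log2(RPKM + 0.5) on day 10 minus that on day 6, a scale that understates the change of genes with low values. The groups are Tet3 knockout with Dkk on day 10 and on day 6, Tet3 knockout without Dkk on day 10 and on day 6, and wild type (WT) without Dkk on day 10 and on day 6, with 1 library each. All 6 came from mouse embryonic stem (ES) cells of the C57BL/6 strain grown as floating aggregates in serum-free culture (SFEB), which leads them towards neuroectoderm, the source of the nervous system. The knockout cells, treated or not, had lost a floxed Tet3 exon after transient Cre expression, and the labels describe 1 such knockout, so genotype and cell line cannot be told apart. Which Dkk protein was given, at what dose and on which days is not given in the sources used here. Labels do not state whether any of the 6 libraries came from the same culture. The 4 libraries of the serum culture were not used here.

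Wnt proteins are secreted signals that stabilise beta-catenin, which then acts with TCF and LEF factors on target genes in the nucleus. Dkk proteins are secreted inhibitors that bind the Wnt co-receptors Lrp5 and Lrp6. In the early embryo, low Wnt activity favours anterior neural fates and high Wnt activity favours posterior fates and mesoderm. Later, Wnt1 with Fgf8 marks the organiser between midbrain and hindbrain, and Wnt3a marks the dorsal midline of the forebrain next to the choroid plexus. Tet3 oxidises methylated cytosine in DNA.

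Estimated depth was 37300000 reads for the Dkk-treated day 10 library and 10500000 for its day 6 library, a ratio of 3.55, and 10100000 to 11200000 for the other 4. For day 10 with Dkk a total about 2 times as large matched the steps of the deposited values better, with a mean cosine of 0.637 over 80 values, against 0.509 over 137 values for the total used, which was the smallest that fit. The depth of that library is therefore the least certain. Ratios of RPKM do not use it, while read numbers, intervals and floors do. Intervals given below are 95% Clopper-Pearson intervals of the ratio of estimated reads, on the log2 scale. They cover counting error only. Without a pseudocount in them, they need not contain the log2 ratio printed beside them. For a gene listed at 0 in 1 library, the fold is given against a floor of 3 counts there. That fold leaves out the counting error of the other library, so the end of the interval nearest to no change is given with it. The summed RPKM of 6 neuron markers (Tubb3, Dcx, Map2, Stmn2, Elavl3 and Elavl4) was 1713 on day 10 and 101 on day 6 with Dkk. The summed RPKM of 6 neural progenitor markers was 927 on day 10 and 272 on day 6, most of it from Fabp7, and without Fabp7 it was 214 on day 10 and 191 on day 6. That of 4 pluripotency markers was 9.03 on day 10 and 59.9 on day 6, most of it from Pou5f1 on day 6, and without Pou5f1 it was 2.48 on day 10 and 1.78 on day 6. The aggregates thus carried markers of neural cells on both days, although the label of the cell type reads embryonic stem cells. In such bulk samples, fewer cells of a type and less RNA per cell cannot be told apart. Tet3 itself stood at 13.1 RPKM on day 10 and 7.64 on day 6 with Dkk. Untreated knockout cells had 14.3 on day 10 and 6.59 on day 6, and WT cells had 10.2 on day 10 and 8.11 on day 6. This value covers the whole gene, of which 1 exon was removed, so it does not check the genotype.

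In the Dkk-treated course 2181 genes stood higher by 2-fold or more on day 10, and 873 lower by 2-fold or more. These are 18.0% and 7.20% of the genes compared. Differences of 4-fold or more were found for 712 higher and 102 lower genes, and of 16-fold or more for 62 higher and 3 lower genes. The median gene was 0.125 higher on the log2 scale on day 10, and relative to that median 1898 genes were higher and 1159 lower. Counting error alone left most of these differences in place, since the interval of the read ratio did not include 1 for 2125 of the higher and 846 of the lower genes. Where both libraries had to reach 1 RPKM, a rule added after the data were seen, 1402 genes were higher and 717 lower. Near the filter, 147 genes had a higher value of 0.9 to under 1 RPKM and 121 genes one of 1 to under 1.1 RPKM. Of the 12127 genes, 1011 reached 1 RPKM on day 10 alone and 315 on day 6 alone, and a gene that passed in this way tends to differ by the choice of the filter. With 1 library on each side, the course has no replicate and no test of its own.

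The 3 SFEB courses share no library, so the change between days could be tested on their average. With limma, with the condition as a block, 4232 of 12912 genes rose on average (32.8%) and 2769 fell (21.4%) at an adjusted p of 0.05. When each library was centred on its median the split turned, with 3158 genes higher and 3975 lower. Of the 2181 genes higher in the Dkk course, 2036 (93.4%) were among those that rose, and of the 873 lower genes 759 (86.9%) were among those that fell. The Dkk libraries are part of this fit, so these shares are not independent of the course. In the text, rose and fell are used for genes that passed this test over the 3 courses, and higher and lower for the Dkk course alone. Counts of gene lists given below stand beside the shares of all genes tested, 32.8% risen and 21.4% fallen. For higher and lower in the Dkk course the shares of all genes compared are 18.0% and 7.20%.

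**Figure D1:**
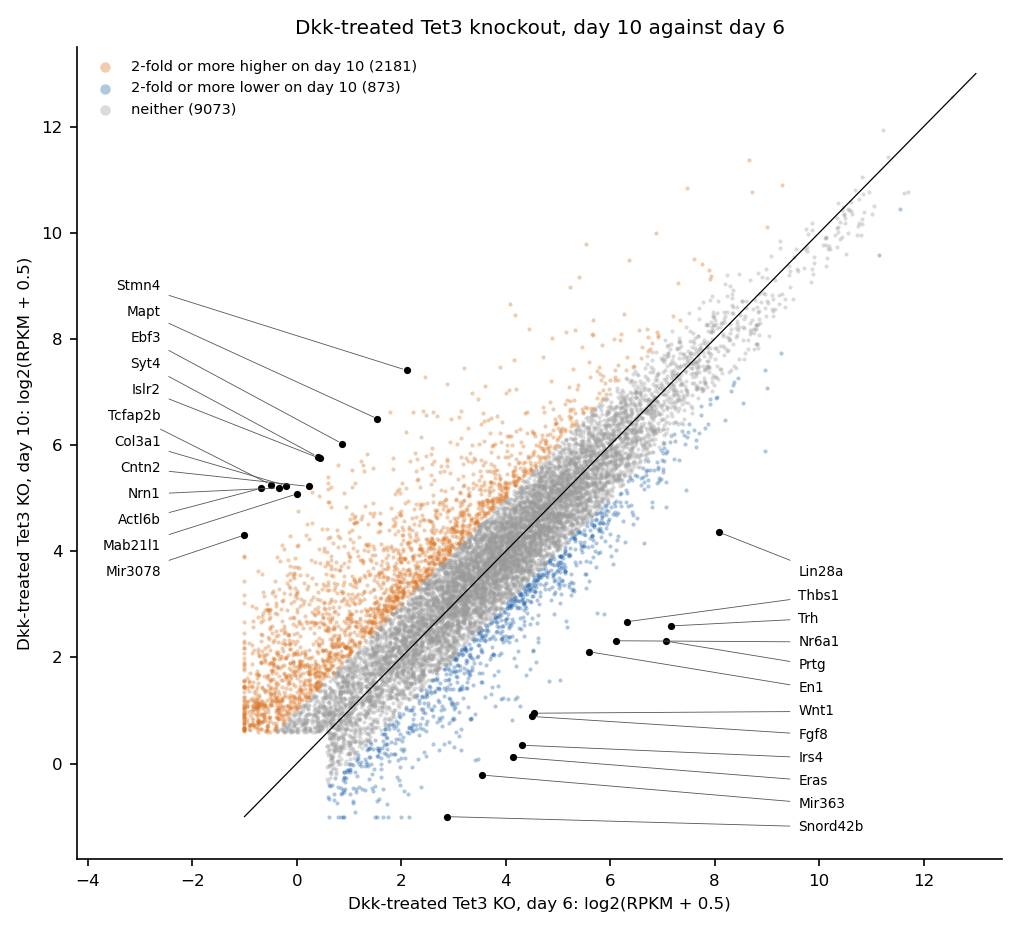
Each point is a gene at 1 RPKM or more in either library, with log2(RPKM + 0.5) on day 10 of the Dkk-treated knockout on the vertical axis and that on day 6 on the horizontal axis. The 12 genes with the highest and the 12 with the lowest ratio among genes at 5 RPKM or more are named, and the 2181 higher genes reach farther from the diagonal than the 873 lower ones.

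Actl6b, the neuron-specific actin-like subunit of the BAF chromatin remodelling complex, had the highest ratio with Dkk among genes at 5 RPKM or more, at 35.8 RPKM on day 10 and 0.12 on day 6 with Dkk. Actl6b was at 29.5 on day 10 and 0.5 on day 6 in the untreated knockout, and at 31.03 on day 10 and 1.26 on day 6 in WT. Its log2 ratio with Dkk was 5.87 (interval 5.41 to 13.2), and limma put the day change over the 3 courses at 4.98 ± 0.30 (SE; adjusted p = 7.26e-05). All 3 day 10 values lay above all 3 day 6 values, as they did for 34.7% of the 12912 genes tested (for 22.7% they lay below). Stmn4, a stathmin that binds tubulin, had 169 RPKM on day 10 and 3.8 on day 6 with Dkk. For Stmn4, the untreated knockout had 128 on day 10 and 3.14 on day 6, and WT had 113 on day 10 and 5.96 on day 6. Mapt, which encodes the axonal protein tau, had 89.7 RPKM on day 10 and 2.42 on day 6 with Dkk. Mapt had 90.6 on day 10 and 2.19 on day 6 in the untreated knockout, and 112 on day 10 and 3.38 on day 6 in WT. Both genes were low in each day 6 library and high in each day 10 library. Cntn2, an axonal adhesion molecule, was at 36.8 RPKM on day 10 and 0.67 RPKM on day 6 with Dkk, and Islr2, a membrane protein of growing axons, at 53.3 RPKM on day 10 and 0.86 RPKM on day 6. Syt4, a synaptotagmin of vesicles, was at 54.5 RPKM on day 10 and 0.82 RPKM on day 6, and Ebf3, a transcription factor of differentiating neurons, at 64.7 RPKM on day 10 and 1.33 RPKM on day 6. Mab21l1 was at 33.4 RPKM on day 10 and 0.51 RPKM on day 6. The groups did not overlap between days for any of these genes.

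Among the 12 genes with the highest ratios, 3 had day 10 levels that lay far apart between the courses, a difference that was not called in the test between courses given further on. Tcfap2b, an AP-2 transcription factor, was at 37.6 RPKM on day 10 and 0.21 on day 6 with Dkk. Tcfap2b was at 3.25 on day 10 and 0.24 on day 6 in untreated knockout cells, and at 25.1 on day 10 and 0.44 on day 6 in WT. The untreated knockout was thus the lowest of the 3 on day 10 for this gene. Nrn1, which encodes the neurite growth protein neuritin, was at 36.1 RPKM on day 10 and 0.29 on day 6 with Dkk. Nrn1 stood at 8.31 on day 10 and 0.42 on day 6 in knockout cells without Dkk, and at 17.7 on day 10 and 0.31 on day 6 in WT. Col3a1, a fibrillar collagen of connective tissue, was at 37.2 RPKM on day 10 and 0.37 on day 6 with Dkk. In cells without Dkk, Col3a1 was at 382 on day 10 and 2.61 on day 6 in the knockout and at 20.5 on day 10 and 0.88 on day 6 in WT. Here the untreated knockout was the highest on day 10. The remaining gene was the hairpin locus Mir3078, at 19.3 RPKM on day 10 and 0 on day 6 with Dkk. Levels of Mir3078 were 23.1 on day 10 and 0 on day 6 in the untreated knockout, and 18.2 on day 10 and 0 on day 6 in WT. With Dkk its day 10 value was at least 5.9-fold higher by the floor of 3 counts on day 6, and the interval of the ratio reached down to 2.22 on the log2 scale.

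The 4 lists of general neuron genes moved almost as a whole. Of 17 genes of the neuron cytoskeleton past the filter, 16 were higher on day 10 with Dkk and none lower, with a median log2 ratio of 3.62 against 0.125 over all genes compared, of which 18.0% were higher. The median was 3.70 in the untreated knockout and 3.06 in WT, and limma called all 17 as risen, against 32.8% of all genes tested. Tubb3, the neuron-specific beta-tubulin, had 885 RPKM on day 10 and 45.6 on day 6 with Dkk. Its values were 599 on day 10 and 33.96 on day 6 in the untreated knockout, and 616 on day 10 and 93.3 on day 6 in WT. Dcx, the microtubule protein doublecortin of migrating neurons, had 97.9 RPKM on day 10 and 2.97 on day 6 with Dkk. Dcx in the untreated knockout was at 132 on day 10 and 2.8 on day 6, and in WT at 167 on day 10 and 5.74 on day 6. Gap43, a growth cone protein, was at 403 RPKM on day 10 and 16.4 RPKM on day 6 with Dkk, and Stmn3 at 347 RPKM on day 10 and 17.7 RPKM on day 6. Every day 10 library exceeded every day 6 library for these 4 genes, a separation shared by 34.7% of all genes tested.

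Of 18 genes of the synapse and transmitter release, 18 were higher with Dkk, with a median of 2.86 (2.89 in the untreated knockout and 3.21 in WT), and limma called 18 as risen. All 18 listed members passed the filter, 8 of them on day 10 alone. Snap25, a SNARE protein of vesicle fusion, was at 24.1 RPKM on day 10 and 1.64 on day 6 with Dkk. Without Dkk, Snap25 was at 31.7 on day 10 and 1.1 on day 6 in the knockout, and at 34.1 on day 10 and 1.25 on day 6 in WT. Rab3a, a vesicle GTPase, was at 45.4 RPKM on day 10 and 1.94 RPKM on day 6 with Dkk, and Syt1, the calcium sensor of release, at 13.4 RPKM on day 10 and 0.77 RPKM on day 6. The smallest ratio of this list was 1.40, for the calcium channel gene Cacna1b. Neuronal RNA-binding proteins, which control splicing and stability of neuronal transcripts, gave 11 higher of 12, with a median of 2.19 with Dkk, 3.22 in the untreated knockout and 2.70 in WT. All 12 rose over the 3 courses. Elavl3, the most changed of them, was at 56.6 RPKM on day 10 and 2.03 on day 6 with Dkk. Values of Elavl3 were 66.2 on day 10 and 2.33 on day 6 in knockout cells without Dkk, and 62.5 on day 10 and 4.83 on day 6 in WT. Rbfox1, a splicing regulator, was at 5.82 RPKM on day 10 and 0.12 on day 6 with Dkk. It was at 11.97 on day 10 and 0.14 on day 6 in the untreated knockout, and at 11.4 on day 10 and 0.45 on day 6 in WT. Its day 10 value was lowest with Dkk.

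Proneural and neurogenic factors, which drive progenitors into neuronal differentiation, gave 20 higher and none lower of 21, with a median of 3.35 with Dkk, 3.12 in the untreated knockout and 2.85 in WT. Of the 21, 13 reached 1 RPKM on day 10 alone, and over all 24 members the median was 3.271. Limma called 19 of them as risen. Neurog2, a proneural factor of glutamatergic lineages, was at 11.2 RPKM on day 10 and 0.38 on day 6 with Dkk. Neurog2 had 20.9 on day 10 and 1.96 on day 6 in knockout cells without Dkk, against 6.31 on day 10 and 0.44 on day 6 in WT. The untreated knockout had the highest Neurog2 value on both days. Myt1, a zinc finger factor, was at 34.2 RPKM on day 10 and 0.73 RPKM on day 6 with Dkk, Nhlh2 at 38.4 RPKM on day 10 and 1.01 RPKM on day 6, and Ebf2 at 22.8 RPKM on day 10 and 0.73 RPKM on day 6. The exception in this list was Olig1, at 2.49 RPKM on day 10 and 2.89 RPKM on day 6, with a log2 ratio of -0.18.

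**Figure D2:**
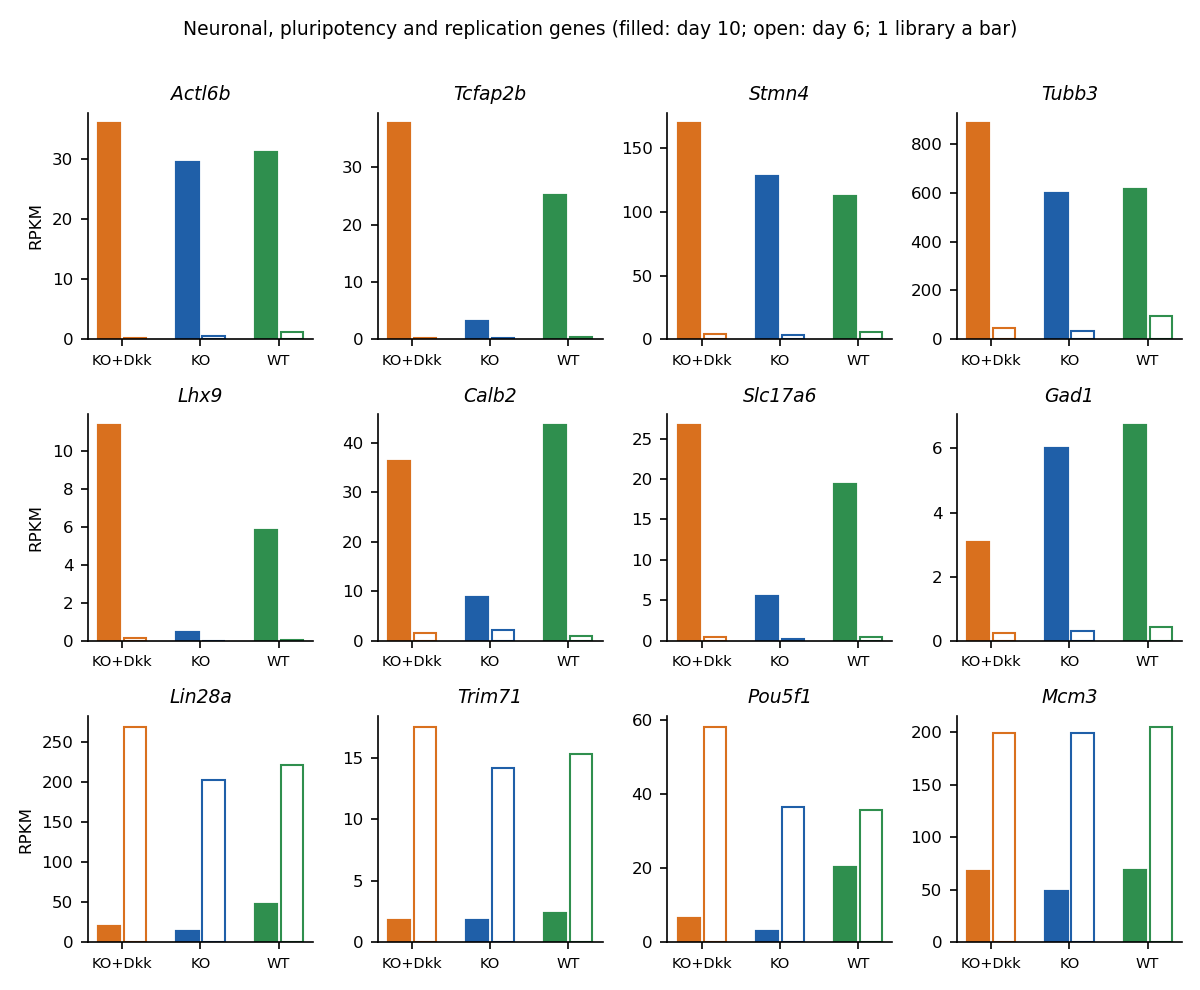
Bars give RPKM on day 10 (filled) and day 6 (open) in the knockout with Dkk, the untreated knockout and WT for 12 genes, 1 library a bar. Actl6b, Stmn4 and Tubb3 are several times higher on day 10 than on day 6 in all 3 courses, while Lin28a, Trim71, Pou5f1 and Mcm3 are lower on day 10 in each.

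Axon guidance genes gave 13 higher and 2 lower of 25, with a median of 1.01 with Dkk, 1.58 in the untreated knockout and 1.26 in WT, and limma called 18 as risen and 1 as fallen. All 25 listed members passed the filter, 6 of them on day 10 alone. Robo3, the Slit receptor relative of commissural axons, was at 48.7 RPKM on day 10 and 1.23 on day 6 with Dkk. Knockout cells without Dkk had 29.4 on day 10 and 2.13 on day 6, and WT cells had 39.6 on day 10 and 5.7 on day 6. L1cam, an axonal adhesion molecule, was at 20.9 RPKM on day 10 and 0.89 RPKM on day 6 with Dkk, and Dcc, a netrin receptor, at 13.8 RPKM on day 10 and 1.88 RPKM on day 6. The 2 lower genes were the ephrin Efna5, at 10.97 RPKM on day 10 and 25.1 RPKM on day 6, and the semaphorin Sema3c, at 3.44 RPKM on day 10 and 7.57 RPKM on day 6. Sema3c was at 13.01 on day 10 and 4.72 on day 6 in the untreated knockout, the opposite direction, and at 3.91 on day 10 and 4.9 on day 6 in WT.

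REST is a repressor that keeps neuronal genes silent outside neurons. Its own transcript was at 5.06 RPKM on day 10 and 10.7 on day 6 with Dkk. Rest stood at 5.25 on day 10 and 11 on day 6 in the untreated knockout, and 4.37 on day 10 and 8.74 on day 6 in WT. It was lower on day 10 in each course. Promoters were searched on both strands for the left core of the REST element, TCAGCACC, in windows of 250 bases before to 50 bases after each annotated start in RefSeq (build GRCm38.p6). Of 32851 windows, 542 (1.65%) held these letters. Of the 68 gene names of the 4 neuronal lists past the filter, 42 matched the table, and 4 of their 74 windows (5.41%) held it, those of Kif5c, Syn1, Tubb3 and Unc13a. Of the 12 genes with the highest ratios, 6 matched the table, and 1 of their 8 windows held the core, that of Actl6b. Stretches of 2 promoters are shown because they hold the core and their genes, Tubb3 and Actl6b, were higher on day 10. The stretches lie on the plus strand at chr8:123411303-123411552 for Tubb3, which ends at the base before the start, and at chr5:137553564-137553593 for Actl6b, past its start. Capitals mark the reverse complement of the core, GGTGCTGA, at position -121 of Tubb3 and position 38 of Actl6b, counted from the start.
Tubb3: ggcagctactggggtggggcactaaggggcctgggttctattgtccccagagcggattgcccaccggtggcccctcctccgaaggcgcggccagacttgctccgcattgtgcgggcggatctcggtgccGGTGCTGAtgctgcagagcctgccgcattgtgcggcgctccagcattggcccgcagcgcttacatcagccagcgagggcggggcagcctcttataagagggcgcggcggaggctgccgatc
Actl6b: ggagctgtccggccgcctcGGTGCTGAtcc
A match of letters is a description of the sequence, and binding was not measured.

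MicroRNA genes of neurons were read as hairpin loci in total RNA, so these values do not measure the mature miRNA. Mir9-2, of the neural miRNA miR-9, was at 10.3 RPKM on day 10 and 0 on day 6 with Dkk. Without Dkk the level of Mir9-2 was 25.4 on day 10 and 0 on day 6 in the knockout, and 11 on day 10 and 0 on day 6 in WT. With Dkk this was at least 2.6-fold higher on day 10 by the floor, and the interval reached down to 0.999 on the log2 scale, from 28 estimated reads on day 10 and none on day 6. Mir124a-2, of the neuronal miRNA miR-124, was at 57.4 RPKM on day 10 and 4.3 on day 6 with Dkk. Mir124a-2 transcripts were at 60.4 on day 10 and 6.21 on day 6 in the untreated knockout, and at 102 on day 10 and 8.08 on day 6 in WT. Both were higher on day 10 in each course. Mir363 ran the other way, at 0.36 RPKM on day 10 and 11.2 on day 6 with Dkk. Untreated knockout cells had 0 on day 10 and 9.03 on day 6, and WT cells had 0 on day 10 and 5.22 on day 6. Its log2 ratio with Dkk was -3.77, from 1 estimated read on day 10 and 9 on day 6 (interval -10.5 to -2.15). It belongs to a cluster expressed in ES cells, and the mature sequences are shown because their seeds (bases 2 to 8, in capitals) place them in separate families. They come from RefSeq (GRCm38.p6), at chr13:83738821-83738843 and chr13:83738858-83738879 on the plus strand for the arms of Mir9-2, and at chrX:52741697-52741718 on the minus strand for Mir363. Mir25, at chr5:138165332-138165353 on the minus strand, shares the seed AUUGCAC with miR-363-3p.
miR-9-5p: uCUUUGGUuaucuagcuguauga
miR-9-3p: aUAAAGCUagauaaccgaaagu
miR-363-3p: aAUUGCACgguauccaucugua
miR-25-3p: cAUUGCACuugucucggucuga
The Mir25 locus was at 3.17 RPKM on day 10 and 0 on day 6 with Dkk. Mir25 was at 1.09 on day 10 and 3.45 on day 6 in the untreated knockout, and at 0 on day 10 and 4.66 on day 6 in WT. With Dkk this rests on 10 estimated reads on day 10 and none on day 6, and the interval of the ratio reached down to -0.66 on the log2 scale and so included no change.

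Markers of both glutamatergic and GABAergic neurons were higher on day 10. Of 16 transmitter identity genes 9 passed the filter and 8 of them were higher with Dkk, with a median of 2.29 with Dkk, 2.96 in the untreated knockout and 2.13 in WT. Of the 9, 8 reached 1 RPKM on day 10 alone, and over all 16 members the median was 1.2. Over the 3 courses 10 of 15 tested members rose. Slc17a6, the vesicular glutamate transporter VGLUT2, was at 26.7 RPKM on day 10 and 0.52 on day 6 with Dkk. For Slc17a6, the untreated knockout had 5.48 on day 10 and 0.27 on day 6, and WT had 19.4 on day 10 and 0.48 on day 6. Gad1, which makes GABA, was at 3.07 RPKM on day 10 and 0.23 on day 6 with Dkk. Gad1 had 6.03 on day 10 and 0.3 on day 6 in the untreated knockout, and 6.73 on day 10 and 0.42 on day 6 in WT. On day 10 the untreated knockout was the lowest of the 3 for Slc17a6, and the Dkk-treated knockout was the lowest for Gad1. Sst, the neuropeptide somatostatin, was at 25.1 RPKM on day 10 and 3.44 RPKM on day 6 with Dkk, and Th, the rate-limiting enzyme of catecholamine synthesis, at 2.11 RPKM on day 10 and 0.16 RPKM on day 6. The cholinergic and serotonergic genes Chat and Tph2 stayed under the filter with Dkk, at 0.05 RPKM on day 10 and 0.03 RPKM on day 6 for Chat and 0.37 RPKM on day 10 and 0 RPKM on day 6 for Tph2.

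Of 16 genes of cortical and Cajal-Retzius neurons, 13 were higher with Dkk and none lower, with a median of 1.47 with Dkk, 1.74 in the untreated knockout and 1.19 in WT. Limma called 12 as risen. All 16 listed members passed the filter, 6 of them on day 10 alone and 1 on day 6 alone. Calb2, the calcium-binding protein calretinin, was at 36.4 RPKM on day 10 and 1.57 on day 6 with Dkk. Calb2 was at 8.88 on day 10 and 2.16 on day 6 in untreated knockout cells, and at 43.6 on day 10 and 0.96 on day 6 in WT. Tbr1, a T-box factor of early cortical neurons, was at 3.71 RPKM on day 10 and 0.05 on day 6 with Dkk. Tbr1 stood at 0.21 on day 10 and 0 on day 6 in knockout cells without Dkk, and at 0.6 on day 10 and 0.02 on day 6 in WT. The untreated knockout was the lowest of the 3 on day 10 for both. Trp73, a factor of Cajal-Retzius cells, was at 3.7 RPKM on day 10 and 0.62 RPKM on day 6 with Dkk, and Reln, the extracellular protein these cells secrete, at 4.56 RPKM on day 10 and 1.54 RPKM on day 6.

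Forebrain regulators split, with 7 higher and 3 lower of 16 past the filter and a median of 0.50 with Dkk, 0.23 in the untreated knockout and 0.23 in WT. Limma called 7 as risen and 3 as fallen, against 32.8% and 21.4% of all genes tested. Lhx2, a LIM factor of the telencephalon and eye, was at 38.6 RPKM on day 10 and 1.68 on day 6 with Dkk. In cells without Dkk, Lhx2 was at 2.16 on day 10 and 0.3 on day 6 in the knockout and at 16.1 on day 10 and 0.77 on day 6 in WT. Lhx9, a LIM factor of diencephalic and pioneer neurons, was at 11.4 RPKM on day 10 and 0.13 on day 6 with Dkk. Levels of Lhx9 were 0.48 on day 10 and 0 on day 6 in the untreated knockout, and 5.82 on day 10 and 0.03 on day 6 in WT. Each was under 2 RPKM in the 3 day 6 libraries and highest with Dkk on day 10. Sp8, a zinc finger factor, was lower instead, at 3.29 RPKM on day 10 and 23.5 on day 6 with Dkk. Its values were 10.5 on day 10 and 14.5 on day 6 in the untreated knockout, and 12.6 on day 10 and 26.3 on day 6 in WT. Otx1 was at 8.67 RPKM on day 10 and 20.3 RPKM on day 6 with Dkk. Otx2, a forebrain and midbrain factor, was nearly level at 73.6 RPKM on day 10 and 64.2 RPKM on day 6 with Dkk, and Six3 likewise at 1.22 RPKM on day 10 and 1.27 RPKM on day 6.

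Genes of the midbrain and hindbrain gave 7 higher and 9 lower of 25. Limma called 6 as risen and 7 as fallen, against 32.8% and 21.4% of all genes tested. The lower ones included the set of the midbrain-hindbrain boundary. Wnt1 was at 1.43 RPKM on day 10 and 22.8 on day 6 with Dkk. Wnt1 in the untreated knockout was at 0.81 on day 10 and 1.02 on day 6, and in WT at 0.59 on day 10 and 21.1 on day 6. Fgf8 was at 1.35 RPKM on day 10 and 22.1 on day 6 with Dkk. Without Dkk, Fgf8 was at 1.46 on day 10 and 13.9 on day 6 in the knockout, and at 2 on day 10 and 19.5 on day 6 in WT. En1, an engrailed factor of this region, was at 3.81 RPKM on day 10 and 47.5 on day 6 with Dkk. Values of En1 were 4.01 on day 10 and 2.73 on day 6 in knockout cells without Dkk, and 3.65 on day 10 and 38.5 on day 6 in WT. The untreated knockout had little Wnt1 on either day and slightly more En1 on day 10, unlike the Dkk-treated knockout and WT. These 3 fell over the courses in limma, with log2 changes of -2.71 ± 0.71 (SE; adjusted p = 0.0168) for Wnt1, -3.16 ± 0.19 (SE; adjusted p = 6.74e-05) for Fgf8 and -2.08 ± 0.71 (SE; adjusted p = 0.0439) for En1. Pax5, a paired box factor of the same boundary, was at 0.55 RPKM on day 10 and 10.1 on day 6 with Dkk. It was at 1.82 on day 10 and 1.04 on day 6 in the untreated knockout, and at 0.73 on day 10 and 11.4 on day 6 in WT. Its log2 ratio with Dkk was -3.33, and its change over the courses did not pass the limma test (adjusted p = 0.0543). Pax2 and Pax8, paired box factors of the boundary, were lower with Dkk too. Pax2 was at 1.7 RPKM on day 10 and 7.87 on day 6 with Dkk. Pax2 had 11.9 on day 10 and 0.93 on day 6 in knockout cells without Dkk, against 6.4 on day 10 and 9.23 on day 6 in WT. Pax8 was at 0.03 RPKM on day 10 and 1.67 on day 6 with Dkk. Knockout cells without Dkk had 3.36 on day 10 and 0.31 on day 6, and WT cells had 0.63 on day 10 and 1.24 on day 6. In the untreated knockout both were higher on day 10, with log2 ratios of 3.12 for Pax2 and 2.25 for Pax8. Lmx1a, a LIM factor of the roof plate and of midbrain dopaminergic progenitors, was the highest member by ratio, at 25.4 RPKM on day 10 and 1.57 on day 6 with Dkk. Lmx1a stood at 3.29 on day 10 and 1.56 on day 6 in the untreated knockout, and 13.6 on day 10 and 0.38 on day 6 in WT. Gata2 and Gata3, GATA factors of midbrain and hindbrain GABAergic neurons, were also higher with Dkk. Gata2 was at 3.68 RPKM on day 10 and 0.17 RPKM on day 6, and Gata3 at 2.21 RPKM on day 10 and 0.2 RPKM on day 6. Of 39 Hox genes 3 passed the filter with Dkk (Hoxa2, Hoxb2 and Hoxc4), with log2 ratios of 0.26 for Hoxa2, 0.03 for Hoxb2 and 1.22 for Hoxc4. Limma called 6 of 26 tested Hox genes as risen and 1 as fallen over the courses.

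Genes of the choroid plexus, the epithelium that secretes cerebrospinal fluid, and of the dorsal midline next to it were higher on day 10 with Dkk. Of 15 members past the filter 10 were higher and none lower. The median log2 ratio was 1.63 with Dkk (1.57 with 3 genes listed at 0 on day 6 set to their bound), 0.01 in the untreated knockout and 0.00 in WT. Of these 15, 5 reached 1 RPKM on day 10 alone, and over all 20 members the median was 1.074. Limma called 5 of the 15 as risen over the courses, a share near the 32.8% of all genes tested. Ttr, the thyroid hormone carrier transthyretin and a leading choroid plexus transcript, was at 155 RPKM on day 10 and 4.99 on day 6 with Dkk. Without Dkk the level of Ttr was 9.28 on day 10 and 4.12 on day 6 in the knockout, and 6.48 on day 10 and 2.49 on day 6 in WT. The other 5 values lay between 2.49 and 9.28 RPKM. The difference between the Dkk course and the mean of the other courses was 3.67 ± 0.32 (SE; unadjusted p = 6.03e-05, adjusted p = 0.778) in limma, which did not pass the threshold.

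The potassium channel subunit gene Kcne2 was at 2.88 RPKM on day 10 and 0 on day 6 with Dkk. Kcne2 transcripts were at 0 on day 10 and 0 on day 6 in the untreated knockout, and at 0 on day 10 and 0 on day 6 in WT. With Dkk the day 10 value was at least 16.7-fold higher by the floor on day 6, and the log2 interval reached down to 3.75. Kcnj13, a potassium channel gene of the same epithelium, was at 1.05 RPKM on day 10 and 0 on day 6 with Dkk. Untreated knockout cells had 0 on day 10 and 0 on day 6, and WT cells had 0 on day 10 and 0 on day 6. Its day 10 value with Dkk was at least 2.8-fold higher by the floor, with the log2 interval reaching down to 1.105. Calml4 was at 2.23 RPKM on day 10 and 0 on day 6 with Dkk. Calml4 was at 0.53 on day 10 and 0.11 on day 6 in the untreated knockout, and at 0.31 on day 10 and 0 on day 6 in WT. For Calml4 with Dkk the day 10 value was at least 5.5-fold higher by the floor, with the log2 interval reaching down to 2.12. These 3 genes were at 0 on day 6 with Dkk and at or near 0 in the other courses. Other genes of the mature epithelium stayed under the filter with Dkk, Kl at 0.06 RPKM on day 10 and 0 RPKM on day 6 and Aqp1 at 0.62 RPKM on day 10 and 0.1 RPKM on day 6. Folr1, a folate receptor gene, was at 8.39 RPKM on day 10 and 7.65 RPKM on day 6.

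Midline signals were higher as well. Rspo1, Rspo2 and Rspo3 encode R-spondins, secreted proteins that enhance Wnt signalling. Rspo1 was at 27.4 RPKM on day 10 and 8.89 on day 6 with Dkk. For Rspo1, the untreated knockout had 4.14 on day 10 and 1.53 on day 6, and WT had 2.64 on day 10 and 3.95 on day 6. Rspo2 was at 40.9 RPKM on day 10 and 7.97 on day 6 with Dkk. Rspo2 had 1.89 on day 10 and 0.32 on day 6 in the untreated knockout, and 4.48 on day 10 and 5.19 on day 6 in WT. Rspo3 was at 23.8 RPKM on day 10 and 4.81 on day 6 with Dkk. Rspo3 was at 2.56 on day 10 and 10.8 on day 6 in untreated knockout cells, and at 2.46 on day 10 and 1.55 on day 6 in WT. For Rspo3 the untreated knockout ran the opposite way, with a log2 ratio of -1.88 against 2.20 with Dkk. Wnt3a was at 3.13 RPKM on day 10 and 1.12 on day 6 with Dkk. Wnt3a stood at 0.43 on day 10 and 0.91 on day 6 in knockout cells without Dkk, and at 0.29 on day 10 and 0.57 on day 6 in WT. Bmp4, a BMP ligand of the midline, was at 2.48 RPKM on day 10 and 0.38 on day 6 with Dkk. In cells without Dkk, Bmp4 was at 6.6 on day 10 and 1.8 on day 6 in the knockout and at 1.02 on day 10 and 0.25 on day 6 in WT. Wnt3a was higher on day 10 with Dkk and lower in the other courses, while Bmp4 was higher in all 3. Msx2, a homeobox gene that responds to BMP, was at 2.29 RPKM on day 10 and 0.91 on day 6 with Dkk. Levels of Msx2 were 0.85 on day 10 and 0.89 on day 6 in the untreated knockout, and 1.55 on day 10 and 1.36 on day 6 in WT. Ttr is also a transcript of visceral endoderm, and the other endoderm genes give values beside it. Afp, alpha-fetoprotein, was at 8.97 RPKM on day 10 and 3.19 on day 6 with Dkk. Its values were 23.8 on day 10 and 1.07 on day 6 in the untreated knockout, and 36.2 on day 10 and 0.99 on day 6 in WT. Apoa1, an apolipoprotein gene, was at 1.84 RPKM on day 10 and 2 on day 6 with Dkk. Apoa1 in the untreated knockout was at 7.24 on day 10 and 0.98 on day 6, and in WT at 1.96 on day 10 and 1.29 on day 6. Rbp4 was at 8.29 RPKM on day 10 and 3.18 on day 6 with Dkk. Without Dkk, Rbp4 was at 9.58 on day 10 and 3.36 on day 6 in the knockout. In WT it was at 9.43 on day 10 and 3.25 on day 6. Apoa2 was at 3.02 RPKM on day 10 and 2.52 on day 6 with Dkk. Within the Dkk course Afp, Rbp4 and Ttr were thus higher on day 10, while Apoa1 and Apoa2 were nearly level. Among the 3 day 10 libraries Afp was lowest with Dkk and Ttr was highest with Dkk. The summed RPKM of the endoderm markers Sox17, Foxa2, Gata6 and Afp with Dkk was 13.1 on day 10 and 9.05 on day 6, and without Afp it was 4.16 on day 10 and 5.86 on day 6. The part of endoderm cells in the value of Ttr was not tested.

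**Figure D3:**
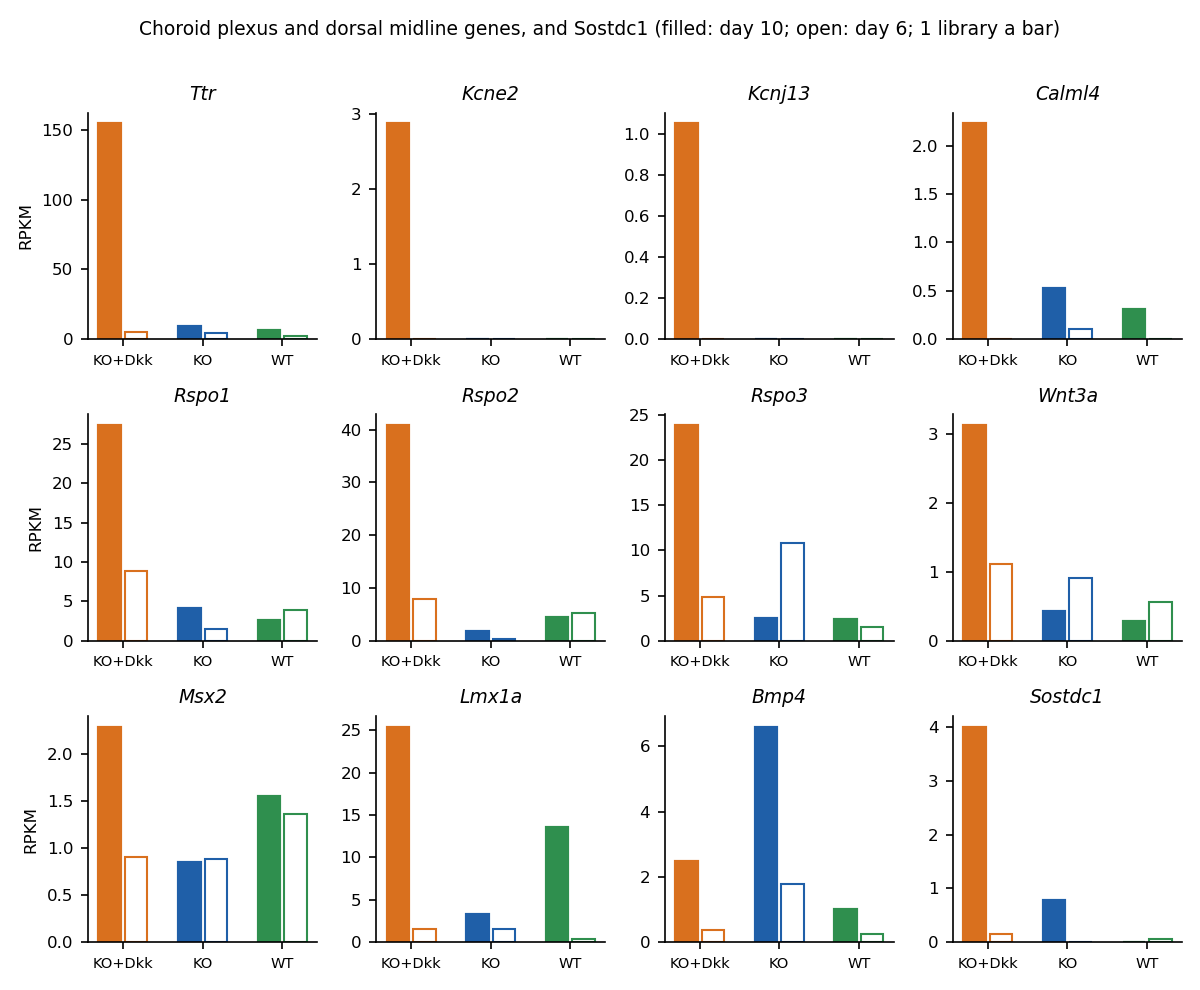
Bars give RPKM on day 10 (filled) and day 6 (open) for 12 genes in the knockout with Dkk, the untreated knockout and WT, 1 library a bar. The genes are of the choroid plexus and dorsal midline, apart from Sostdc1, which is on the list of secreted Wnt antagonists. Ttr reaches 155 RPKM with Dkk on day 10, and Rspo3 is higher on day 10 with Dkk and lower on day 10 in the untreated knockout.

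Wnt ligands split by gene, with 4 higher and 3 lower of 11 past the filter. Limma called 2 of 14 tested as risen and 3 as fallen. Wnt7a, a ligand of the forebrain, was at 11.01 RPKM on day 10 and 1.12 on day 6 with Dkk. Without Dkk, Wnt7a was at 19.9 on day 10 and 2.68 on day 6 in the knockout, and at 14.3 on day 10 and 3.79 on day 6 in WT. Wnt9a was at 4.27 RPKM on day 10 and 1.27 RPKM on day 6 with Dkk, and Wnt3 at 5.28 RPKM on day 10 and 2.17 RPKM on day 6. Beside Wnt1, the lower ligands were Wnt8a, at 0.32 RPKM on day 10 and 2.1 RPKM on day 6, and Wnt5a, at 4.51 RPKM on day 10 and 11.01 RPKM on day 6.

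Most genes on a list of those that the Wnt pathway commonly induces were lower. Of 15 past the filter 9 were lower with Dkk and none higher, and the median log2 ratio was -1.31 with Dkk, -0.45 in the untreated knockout and -0.94 in WT. Limma called 7 of 17 as fallen and none as risen. Axin2, a feedback inhibitor in the beta-catenin destruction complex, was at 12.8 RPKM on day 10 and 32.6 on day 6 with Dkk. Values of Axin2 were 10.1 on day 10 and 10.3 on day 6 in knockout cells without Dkk, and 4.52 on day 10 and 19.9 on day 6 in WT. Tcf7, a TCF transcription factor, was at 4.66 RPKM on day 10 and 24.03 on day 6 with Dkk. It was at 5.1 on day 10 and 25.1 on day 6 in the untreated knockout, and at 4.15 on day 10 and 16.6 on day 6 in WT. Sp5, a zinc finger target gene, was at 1.32 RPKM on day 10 and 6.08 on day 6 with Dkk. Sp5 had 0.7 on day 10 and 3.41 on day 6 in knockout cells without Dkk, against 0.67 on day 10 and 3.69 on day 6 in WT. Tcf7 and Sp5 were lower on day 10 in each course, while Axin2 was nearly level in the untreated knockout. Tnfrsf19 was at 11.5 RPKM on day 10 and 45.9 on day 6 with Dkk. Knockout cells without Dkk had 14.7 on day 10 and 20.7 on day 6, and WT cells had 6.83 on day 10 and 38.9 on day 6. Apcdd1, a membrane inhibitor of Wnt signals, was at 28.2 RPKM on day 10 and 80.9 on day 6 with Dkk. Apcdd1 stood at 23.1 on day 10 and 9.57 on day 6 in the untreated knockout, and 11.7 on day 10 and 43.4 on day 6 in WT. Apcdd1 was higher on day 10 in the untreated knockout and lower with Dkk and in WT. T, the mesoderm factor brachyury, was at 1.9 RPKM on day 10 and 18.01 on day 6 with Dkk. Without Dkk the level of T was 2.19 on day 10 and 37.2 on day 6 in the knockout, and 7.52 on day 10 and 3.64 on day 6 in WT. T was lower on day 10 in both knockout courses and higher in WT. Lef1, the partner of beta-catenin, was at 26.6 RPKM on day 10 and 13.1 on day 6 with Dkk. Lef1 transcripts were at 5.02 on day 10 and 21.1 on day 6 in the untreated knockout, and at 10.7 on day 10 and 13.7 on day 6 in WT. With Dkk its RPKM was thus higher on day 10, by a log2 ratio of 0.99 with the pseudocount, just under the 2-fold line, and without Dkk it was lower. Its change over the courses did not pass the limma test (adjusted p = 0.468). Ccnd1, cyclin D1, was at 109 RPKM on day 10 and 94.8 RPKM on day 6 with Dkk.

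The TCF site CTTTGAT was searched in the same promoter windows on both strands. It was in 1225 of 32851 windows (3.73%), in 2 of 17 windows (11.8%) of the 10 matched genes of the Wnt feedback list, and in 1 of 74 windows (1.35%) of the neuronal lists. The promoter of Sp5 is shown because it holds the letters and its gene fell. It lies at chr2:70474673-70474922 on the plus strand (GRCm38.p6, RefSeq), ends at the base before the start, and has the site in capitals at position -104.
Sp5: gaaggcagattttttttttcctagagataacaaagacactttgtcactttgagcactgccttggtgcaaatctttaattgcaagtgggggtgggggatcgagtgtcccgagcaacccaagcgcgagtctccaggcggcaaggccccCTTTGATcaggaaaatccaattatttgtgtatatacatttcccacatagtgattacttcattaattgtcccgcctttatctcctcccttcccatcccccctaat
The other matched gene with the site was Tnfrsf19.

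Secreted Wnt antagonists gave 2 higher and 3 lower of 7, and limma called 2 of 10 as risen and 2 as fallen. The median was -0.86 with Dkk (-0.081 over all 14 members), 0.13 in the untreated knockout and -0.16 in WT. The cells' own Dkk1 transcript was at 1.08 RPKM on day 10 and 4.82 on day 6 with Dkk. Untreated knockout cells had 0.94 on day 10 and 1.99 on day 6, and WT cells had 1.93 on day 10 and 2.54 on day 6. Dkk3, a relative with weak action on Wnt signals, was at 3.69 RPKM on day 10 and 0.61 on day 6 with Dkk. Dkk3 was at 9.39 on day 10 and 2.02 on day 6 in the untreated knockout, and at 2.46 on day 10 and 0.47 on day 6 in WT. Sostdc1, a secreted antagonist of Wnt and BMP signals, was at 4 RPKM on day 10 and 0.16 on day 6 with Dkk. For Sostdc1, the untreated knockout had 0.78 on day 10 and 0 on day 6, and WT had 0 on day 10 and 0.06 on day 6. Frzb was at 3.64 RPKM on day 10 and 14.1 RPKM on day 6 with Dkk and Cer1 at 0.31 RPKM on day 10 and 3.39 RPKM on day 6. Among 16 receptors and co-receptors, 2 were higher and 4 lower, and limma called 1 as risen and 6 as fallen. Fzd10 was at 46.5 RPKM on day 10 and 21.7 on day 6 with Dkk. Fzd10 had 12.4 on day 10 and 22.3 on day 6 in the untreated knockout, and 14.99 on day 10 and 25.8 on day 6 in WT. It was higher on day 10 with Dkk and lower on day 10 in both other courses. The difference between courses was 1.88 ± 0.26 (SE; unadjusted p = 0.00061, adjusted p = 1.0) in limma. The co-receptor gene Lrp5 was at 8.03 RPKM on day 10 and 19.4 RPKM on day 6 with Dkk and Lrp6 at 8.64 RPKM on day 10 and 14.04 RPKM on day 6.

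**Figure D4:**
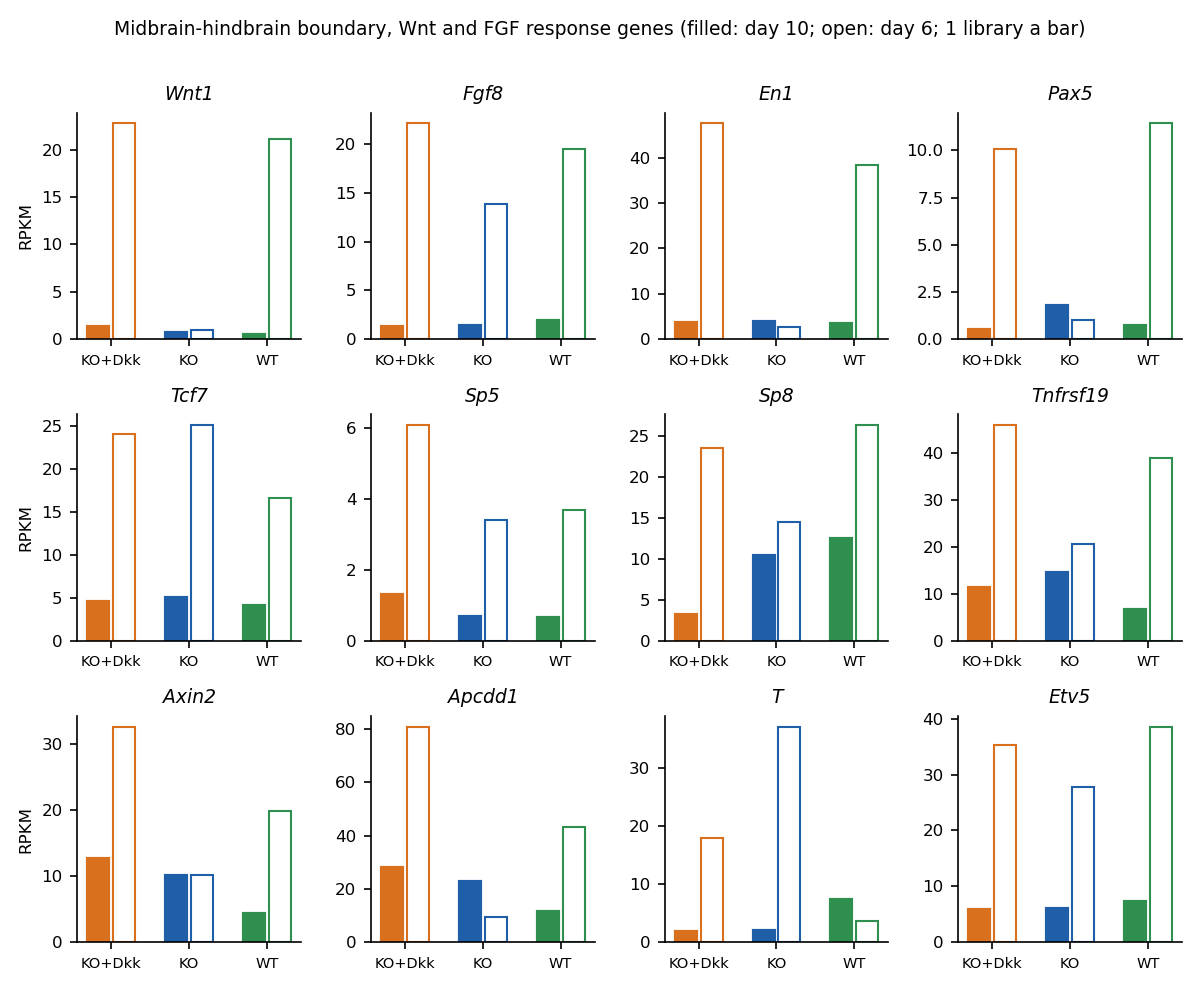
Bars give RPKM on day 10 (filled) and day 6 (open) for 12 genes of the midbrain-hindbrain boundary, the Wnt response and the FGF response in the knockout with Dkk, the untreated knockout and WT, 1 library a bar. Wnt1, Fgf8 and En1 are lower on day 10 with Dkk and in WT, and En1 is slightly higher on day 10 in the untreated knockout.

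FGF signalling genes were mostly lower, with 10 lower and 1 higher of 19, a median of -1.06 with Dkk, -0.81 in the untreated knockout and -1.22 in WT, and 13 called as fallen by limma and 2 as risen. Etv5, an ETS factor induced by FGF, was at 5.94 RPKM on day 10 and 35.3 on day 6 with Dkk. Etv5 was at 6.17 on day 10 and 27.8 on day 6 in untreated knockout cells, and at 7.34 on day 10 and 38.5 on day 6 in WT. Dusp6, a phosphatase that dampens the ERK pathway, was at 10.1 RPKM on day 10 and 31.9 on day 6 with Dkk. Dusp6 stood at 13.1 on day 10 and 43.4 on day 6 in knockout cells without Dkk, and at 10.3 on day 10 and 36.3 on day 6 in WT. Spry2, a sprouty inhibitor, was at 16.7 RPKM on day 10 and 63.3 RPKM on day 6 with Dkk, and Fgf5, a ligand of the epiblast, at 0.24 RPKM on day 10 and 4.72 RPKM on day 6. The higher gene was the receptor Fgfr3, at 20.8 RPKM on day 10 and 5.83 on day 6 with Dkk. In cells without Dkk, Fgfr3 was at 33.2 on day 10 and 11.1 on day 6 in the knockout and at 15 on day 10 and 10.6 on day 6 in WT.

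Counts in 4 other pathways stand beside 18.0% higher and 7.20% lower among all genes compared with Dkk, and 32.8% risen and 21.4% fallen among all genes tested by limma. In the Notch pathway 5 of 19 genes were higher and 3 lower, with a median of 0.80 with Dkk, 0.71 in the untreated knockout and 0.12 in WT, and limma called 10 as risen and 4 as fallen. Hes6, a neuronal Hes factor that opposes Hes1, was at 83.8 RPKM on day 10 and 11.02 on day 6 with Dkk. Levels of Hes6 were 71.6 on day 10 and 14.6 on day 6 in the untreated knockout, and 50.6 on day 10 and 15.2 on day 6 in WT. Hes1, the progenitor repressor, was at 9.21 RPKM on day 10 and 26.3 on day 6 with Dkk. Its values were 16.8 on day 10 and 28.9 on day 6 in the untreated knockout, and 10.3 on day 10 and 25.3 on day 6 in WT. Dll3 was at 18.2 RPKM on day 10 and 5.03 RPKM on day 6 with Dkk and Lfng, a glycosyltransferase of Notch receptors, at 16.4 RPKM on day 10 and 47.04 RPKM on day 6. Among TGF-beta and BMP genes 6 of 16 were higher and 1 lower, and limma called 6 of 19 as risen and 1 as fallen. On day 10 alone 5 of these 16 reached 1 RPKM. Their median with Dkk was 0.311, and over all 21 members it was 0.297. Id4, an inhibitor of bHLH factors, was at 34.7 RPKM on day 10 and 3.28 on day 6 with Dkk. Id4 in the untreated knockout was at 50 on day 10 and 3.5 on day 6, and in WT at 39.2 on day 10 and 6.55 on day 6. In the Hedgehog pathway 3 of 12 were higher and 1 lower, and limma called 4 of 15 as risen and 4 as fallen. Shh was at 3.88 RPKM on day 10 and 0.95 on day 6 with Dkk. Without Dkk, Shh was at 13.3 on day 10 and 6.6 on day 6 in the knockout, and at 4.98 on day 10 and 0.33 on day 6 in WT. In the retinoic acid pathway 1 of 13 was higher and 3 lower, and limma called 2 of 14 as risen and 5 as fallen. Cyp26b1, an enzyme that degrades retinoic acid, was at 22.4 RPKM on day 10 and 4.23 on day 6 with Dkk. Values of Cyp26b1 were 17.1 on day 10 and 14.98 on day 6 in knockout cells without Dkk, and 44.7 on day 10 and 13.1 on day 6 in WT.

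Most genes of pluripotent and early embryonic cells past the filter were lower on day 10. Of 26 genes on the list 14 passed the filter with Dkk, 10 of them lower and 1 higher, with a median of -1.96 with Dkk, -1.82 in the untreated knockout and -0.28 in WT. Over all 26 members the median with Dkk was -0.551. Limma called 10 of 22 as fallen and 1 as risen. Lin28a, an RNA-binding protein that blocks the maturation of let-7, was at 20.1 RPKM on day 10 and 269 on day 6 with Dkk. It was at 13.8 on day 10 and 203 on day 6 in the untreated knockout, and at 47.6 on day 10 and 221 on day 6 in WT. Trim71, a target of let-7 in early embryos, was at 1.83 RPKM on day 10 and 17.6 on day 6 with Dkk. Trim71 had 1.83 on day 10 and 14.2 on day 6 in knockout cells without Dkk, against 2.42 on day 10 and 15.3 on day 6 in WT. Both were lower on day 10 in all courses. Pou5f1, which encodes Oct4, was at 6.55 RPKM on day 10 and 58.1 on day 6 with Dkk. Knockout cells without Dkk had 3.06 on day 10 and 36.6 on day 6, and WT cells had 20.3 on day 10 and 35.8 on day 6. Nanog was under the filter with Dkk, at 0.08 RPKM on day 10 and 0.55 RPKM on day 6. So was Zfp42, at 0.16 RPKM on day 10 and 0.36 RPKM on day 6. The pluripotency marker Esrrb was higher instead, at 2.24 RPKM on day 10 and 0.87 on day 6 with Dkk. Esrrb was at 7.22 on day 10 and 0.88 on day 6 in the untreated knockout, and at 2.84 on day 10 and 2.12 on day 6 in WT. It rose over the courses in limma (adjusted p = 0.0307). Hmga2, a chromatin protein and let-7 target on the list of neural progenitor genes, was at 13.01 RPKM on day 10 and 65.7 on day 6 with Dkk. Hmga2 stood at 32.5 on day 10 and 133 on day 6 in the untreated knockout, and 20.2 on day 10 and 68.8 on day 6 in WT.

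The genes with the lowest ratios with Dkk held further early genes. Prtg, the neural tube receptor protogenin, was at 4.45 RPKM on day 10 and 133 on day 6 with Dkk. Without Dkk the level of Prtg was 4.47 on day 10 and 116 on day 6 in the knockout, and 8.23 on day 10 and 93.9 on day 6 in WT. Its log2 ratio with Dkk was -4.76 (interval -5.01 to -4.8), and limma put the day change over the courses at -4.25 ± 0.25 (SE; adjusted p = 6.41e-05). Trh, the precursor of thyrotropin-releasing hormone, was at 5.53 RPKM on day 10 and 143 on day 6 with Dkk. Trh transcripts were at 1.92 on day 10 and 109.7 on day 6 in the untreated knockout, and at 15.2 on day 10 and 96.05 on day 6 in WT. Nr6a1, an orphan nuclear receptor of early embryos, was at 4.47 RPKM on day 10 and 68.6 on day 6 with Dkk. Untreated knockout cells had 4.39 on day 10 and 57.1 on day 6, and WT cells had 9.2 on day 10 and 59.9 on day 6. The 3 genes fell, and no day 10 library reached a day 6 library, as was so for 22.7% of the 12912 genes tested. Eras, a Ras relative of ES cells, was at 0.59 RPKM on day 10 and 17.1 on day 6 with Dkk. Eras was at 0.34 on day 10 and 8.08 on day 6 in the untreated knockout, and at 1.63 on day 10 and 3 on day 6 in WT. Irs4, an insulin receptor substrate, was at 0.77 RPKM on day 10 and 19.4 on day 6 with Dkk. For Irs4, the untreated knockout had 0.54 on day 10 and 1.13 on day 6, and WT had 0.59 on day 10 and 9.15 on day 6. Thbs1, the matrix protein thrombospondin, was at 5.87 RPKM on day 10 and 79.1 RPKM on day 6 with Dkk. The small nucleolar RNA locus Snord42b was at 0 RPKM on day 10 and 6.82 on day 6 with Dkk. Snord42b had 0 on day 10 and 0 on day 6 in the untreated knockout, and 3.2 on day 10 and 7.12 on day 6 in WT. With Dkk the day 10 value of Snord42b was at least 5.9-fold lower by the floor of 3 counts on day 10. The log2 interval reached up to -1.70, from no read on day 10 and 5 estimated reads on day 6.

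Cell division genes were lower by smaller factors. Of 26 genes of the cell cycle and replication 10 were 2-fold lower and none higher with Dkk, and the median log2 ratio was -0.90 with Dkk, -1.27 in the untreated knockout and -1.07 in WT. Limma called 25 of them as fallen. Mcm3, a subunit of the replicative helicase, was at 68.3 RPKM on day 10 and 199.6 on day 6 with Dkk. Mcm3 was at 48.8 on day 10 and 199 on day 6 in untreated knockout cells, and at 68.8 on day 10 and 205 on day 6 in WT. All 6 helicase subunit genes Mcm2 to Mcm7 were among the 10 lower genes. Mki67, a marker of dividing cells, was at 12.9 RPKM on day 10 and 25.5 on day 6 with Dkk. Mki67 stood at 12.4 on day 10 and 29.6 on day 6 in knockout cells without Dkk, and at 12.6 on day 10 and 30.8 on day 6 in WT. Among genes of cell cycle exit and p53, 6 of 17 were higher and none lower, and limma called 6 as risen and 4 as fallen. Cdkn1c, a cyclin-dependent kinase inhibitor, was at 229 RPKM on day 10 and 43.7 on day 6 with Dkk. In cells without Dkk, Cdkn1c was at 317 on day 10 and 87.4 on day 6 in the knockout and at 129.8 on day 10 and 40.3 on day 6 in WT. Gadd45g, a stress and differentiation gene, was at 47.1 RPKM on day 10 and 2.26 on day 6 with Dkk. Levels of Gadd45g were 33.7 on day 10 and 6.18 on day 6 in the untreated knockout, and 17.8 on day 10 and 3.99 on day 6 in WT. In limma its difference between courses was 1.91 ± 0.32 (SE; unadjusted p = 0.0016, adjusted p = 1.0).

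Neural progenitor genes did not move as a group, with 5 higher and 3 lower of 23, and 8 called as risen and 5 as fallen by limma. Fabp7, a fatty acid binding protein of radial glia, was at 713 RPKM on day 10 and 81.6 on day 6 with Dkk. Its values were 759 on day 10 and 58.8 on day 6 in the untreated knockout, and 624 on day 10 and 137 on day 6 in WT. Vim, the filament protein vimentin, was at 729 RPKM on day 10 and 194 on day 6 with Dkk. Vim in the untreated knockout was at 847 on day 10 and 235 on day 6, and in WT at 537 on day 10 and 264 on day 6. Both genes were higher on day 10 with Dkk. Sox1, an early neuroectoderm factor, was at 13.3 RPKM on day 10 and 32.5 on day 6 with Dkk. Without Dkk, Sox1 was at 10.2 on day 10 and 19.2 on day 6 in the knockout, and at 20.8 on day 10 and 44.8 on day 6 in WT. Sox2 was at 41.4 RPKM on day 10 and 59.01 RPKM on day 6 with Dkk and Pax6 at 14.9 RPKM on day 10 and 18.1 RPKM on day 6, neither of them 2-fold apart. Genes of astrocytes and oligodendrocytes gave 3 higher and 1 lower of 8, with Slc1a2, a glutamate transporter, at 4.29 RPKM on day 10 and 0.36 RPKM on day 6 and Gja1, connexin 43, at 28.1 RPKM on day 10 and 134 RPKM on day 6. Limma called 4 of 10 as risen and 1 as fallen. The astrocyte marker Gfap was at 0.03 RPKM on day 10 and 0 RPKM on day 6 with Dkk. Of 16 eye genes 3 passed the filter, with Pou4f2, a factor of retinal ganglion and midbrain neurons, at 2.56 RPKM on day 10 and 0.09 RPKM on day 6 and Isl1 at 3.05 RPKM on day 10 and 0.67 RPKM on day 6, and limma called 2 of 7 as risen.

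Contractile genes of heart and muscle were among those higher on day 10. Of 25 on the list 13 passed the filter, 9 of them on day 10 alone, and the median over all 25 was 1.322. Of the 13 past the filter 12 were higher with Dkk and none lower, with a median of 2.75 with Dkk, 2.37 in the untreated knockout and 0.27 in WT. Limma called 11 of 18 as risen. Myl7, an atrial myosin light chain, was at 14.3 RPKM on day 10 and 0 on day 6 with Dkk. Values of Myl7 were 35.9 on day 10 and 1.97 on day 6 in knockout cells without Dkk, and 0.75 on day 10 and 0.5 on day 6 in WT. With Dkk the day 10 value of Myl7 was at least 29.4-fold higher by the floor, and the log2 interval reached down to 4.57. Tnnt2, cardiac troponin T, was at 13.7 RPKM on day 10 and 0.71 on day 6 with Dkk. It was at 24.4 on day 10 and 2.92 on day 6 in the untreated knockout, and at 1.03 on day 10 and 0.25 on day 6 in WT. Actc1, cardiac actin, was at 25.99 RPKM on day 10 and 2.29 on day 6 with Dkk. Actc1 had 54.5 on day 10 and 10.2 on day 6 in knockout cells without Dkk, against 2.28 on day 10 and 1.83 on day 6 in WT. The cardiac transcription factors Nkx2-5 and Tbx5 were under the filter with Dkk, at 0.3 RPKM on day 10 and 0.12 RPKM on day 6 for Nkx2-5 and 0.09 RPKM on day 10 and 0.02 RPKM on day 6 for Tbx5. The summed RPKM of the 6 mesoderm and cardiac markers was 20.3 on day 10 and 20.9 on day 6 with Dkk, a sum of opposite differences. The mesoderm factor T was lower on day 10, as given above, while Tnnt2 and Myh6, a cardiac myosin heavy chain at 2.68 RPKM on day 10 and 0.11 RPKM on day 6, were higher. Without T the sum was 18.4 on day 10 and 2.93 on day 6.

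Fibroblast and matrix genes gave 9 higher and 4 lower of 17, with a median of 1.13 with Dkk, 2.79 in the untreated knockout and 0.19 in WT, and limma called 9 of 18 as risen and 2 as fallen. On day 10 alone 9 of the 17 reached 1 RPKM, and 1 did so on day 6 alone. The median with Dkk was 1.045 over 18 members without the filter and 0.587 over those at 5 RPKM or more. Beside Col3a1, Lum, a small proteoglycan, was at 4.22 RPKM on day 10 and 0.05 on day 6 with Dkk. Knockout cells without Dkk had 48.1 on day 10 and 0.28 on day 6, and WT cells had 4.75 on day 10 and 0.05 on day 6. Col1a1, a fibrillar collagen, was at 6.46 RPKM on day 10 and 0.78 on day 6 with Dkk. Col1a1 stood at 67.6 on day 10 and 1.5 on day 6 in the untreated knockout, and 1.27 on day 10 and 1.13 on day 6 in WT. Fn1, fibronectin, was at 19.3 RPKM on day 10 and 50.05 on day 6 with Dkk. Without Dkk the level of Fn1 was 47.3 on day 10 and 78.3 on day 6 in the knockout, and 20.6 on day 10 and 45.9 on day 6 in WT. The summed RPKM of Col1a1, Col3a1 and Dcn was 45.8 on day 10 and 1.28 on day 6 with Dkk, 473 on day 10 and 4.95 on day 6 in the untreated knockout, and 23.0 on day 10 and 2.24 on day 6 in WT.

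Neural crest genes gave 6 higher and none lower of 11. The median was 1.54 with Dkk, -0.04 in the untreated knockout and 0.71 in WT. With Dkk it was 0.49 over all 17 members without the filter and 2.52 over those at 5 RPKM or more. Limma called 5 of 15 as risen, a share near the 32.8% of all genes tested. The higher genes, among them Tcfap2a, Tcfap2b, Pax3, Ednrb and Ngfr, include genes that dorsal neural progenitors or neurons also express. The defining crest factor Sox10 was at 0.1 RPKM on day 10 and 0.21 RPKM on day 6 and Foxd3 at 0.09 RPKM on day 10 and 0.08 RPKM on day 6 with Dkk, both under the filter on both days. Endothelium and blood genes gave 4 higher of 6 past the filter, 5 of which passed on day 10 alone, and limma called 6 of 12 as risen. Tal1, a factor of blood and of midbrain GABAergic neurons, was at 6.29 RPKM on day 10 and 0.2 RPKM on day 6 and the embryonic globin Hbb-bh1 at 3.45 RPKM on day 10 and 0.15 RPKM on day 6, while the endothelial Cdh5 was at 0.94 RPKM on day 10 and 0.14 RPKM on day 6. Endoderm genes gave 3 higher and 2 lower of 17, with a median of -0.47, and limma called 4 of 18 as risen and 1 as fallen. Apoe was at 38.95 RPKM on day 10 and 134 RPKM on day 6 with Dkk. Surface ectoderm and epithelium genes gave 1 higher of 14, and limma called 1 of 15 as risen and 1 as fallen. Genes of the primitive streak and early mesoderm gave 1 higher and 2 lower of 10 (Lhx1 higher, T and Fgf8 lower), with a median of 0.29 with Dkk that was -2.95 over the 3 members at 5 RPKM or more, and limma called 2 of 22 as risen and 1 as fallen.

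The DNA methyltransferase genes Dnmt1 and Dnmt3b were lower on day 10. Of 15 genes of the methylation machinery 3 were higher and 5 lower with Dkk, against 18.0% higher and 7.20% lower among all genes compared. Limma called 5 as risen and 3 as fallen, shares near the 32.8% and 21.4% of all genes tested. Dnmt3b, a de novo methyltransferase, was at 6.65 RPKM on day 10 and 53.1 on day 6 with Dkk. Dnmt3b transcripts were at 3.74 on day 10 and 38.2 on day 6 in the untreated knockout, and at 13.6 on day 10 and 40.7 on day 6 in WT. Dnmt1, the maintenance methyltransferase, was at 44.9 RPKM on day 10 and 103 on day 6 with Dkk. Untreated knockout cells had 36.4 on day 10 and 94.9 on day 6, and WT cells had 32.9 on day 10 and 97.2 on day 6. Uhrf1, which brings it to replicated DNA, was at 53.1 RPKM on day 10 and 148 on day 6 with Dkk. Uhrf1 was at 35.6 on day 10 and 149 on day 6 in the untreated knockout, and at 39.4 on day 10 and 145 on day 6 in WT. Each fell over the 3 courses. Dnmt3a was at 17.6 RPKM on day 10 and 10.5 RPKM on day 6 with Dkk, with a log2 ratio of 0.72. Of the Tet family, Tet2 was at 2.8 RPKM on day 10 and 0.67 on day 6 with Dkk. For Tet2, the untreated knockout had 3.54 on day 10 and 1.04 on day 6, and WT had 3.21 on day 10 and 0.93 on day 6. Tet1 was at 2.19 RPKM on day 10 and 3.07 on day 6 with Dkk. Tet1 had 2.33 on day 10 and 2.94 on day 6 in the untreated knockout, and 2.47 on day 10 and 2.74 on day 6 in WT. Tet2 and Tet3 rose over the courses in limma, with Tet3 at 0.71 ± 0.17 (SE; adjusted p = 0.0118), and Tet1 did not pass (adjusted p = 0.251).

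Of 21 imprinted genes 9 were higher and 4 lower with Dkk, with a median of 0.88 with Dkk, 0.27 in the untreated knockout and 0.99 in WT, and limma called 11 as risen and 5 as fallen. Nnat, a paternally expressed gene of neurons, was at 1846 RPKM on day 10 and 178 on day 6 with Dkk. Nnat was at 1434 on day 10 and 365 on day 6 in untreated knockout cells, and at 1558 on day 10 and 260.2 on day 6 in WT. Dlk1, a Notch ligand relative, was at 17.1 RPKM on day 10 and 2.01 on day 6 with Dkk. Dlk1 stood at 48.6 on day 10 and 4.54 on day 6 in knockout cells without Dkk, and at 5.34 on day 10 and 1.1 on day 6 in WT. Its neighbour Meg3, a non-coding RNA expressed from the maternal copy, was at 14.7 RPKM on day 10 and 4.64 on day 6 with Dkk. In cells without Dkk, Meg3 was at 9.25 on day 10 and 3.77 on day 6 in the knockout and at 14.2 on day 10 and 4.37 on day 6 in WT. Mest was lower, at 134 RPKM on day 10 and 516 on day 6 with Dkk. Levels of Mest were 156 on day 10 and 330.2 on day 6 in the untreated knockout, and 76.3 on day 10 and 123 on day 6 in WT. Expression from each parental copy was not measured.

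Genes of hypoxia and glycolysis gave 7 higher and 4 lower of 20. Limma called 9 of 21 as risen and 7 as fallen, against 32.8% and 21.4% of all genes tested. The glucose transporter genes Slc2a1 and Slc2a3 were lower. Slc2a1 was at 58.5 RPKM on day 10 and 502 on day 6 with Dkk. Its values were 62.05 on day 10 and 385 on day 6 in the untreated knockout, and 50.1 on day 10 and 249 on day 6 in WT. Slc2a3 was at 35.1 RPKM on day 10 and 173 on day 6 with Dkk. Slc2a3 in the untreated knockout was at 41.2 on day 10 and 189 on day 6, and in WT at 59.6 on day 10 and 148 on day 6. Hexokinases went opposite ways with Dkk, Hk1 at 23.5 RPKM on day 10 and 9.65 RPKM on day 6 and Hk2 at 10.4 RPKM on day 10 and 30.3 RPKM on day 6. Bnip3, a mitochondrial protein induced by low oxygen, was at 74.1 RPKM on day 10 and 12.4 on day 6 with Dkk. Without Dkk, Bnip3 was at 82.9 on day 10 and 15.97 on day 6 in the knockout, and at 45.99 on day 10 and 7.3 on day 6 in WT. Of 13 immediate early genes 4 were higher and 2 lower, and limma called 4 as risen and 3 as fallen. Of 15 housekeeping genes none was 2-fold higher and 1, Polr2a, was 2-fold lower, with a median of -0.24 with Dkk, and limma called 5 as fallen.

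**Figure D5:**
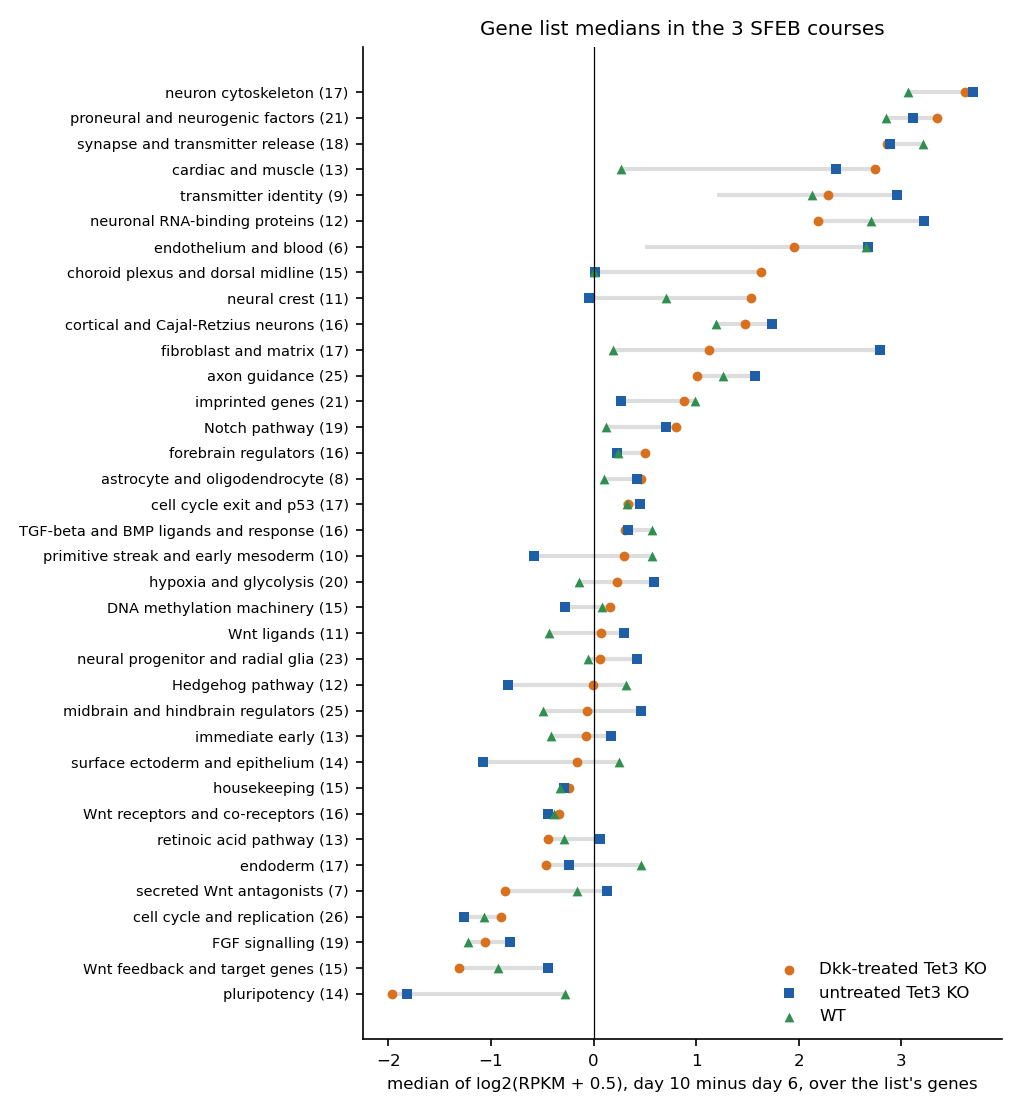
Each row is a gene list with at least 5 genes past the filter, and the points give the median log2 ratio of day 10 over day 6 in the knockout with Dkk, the untreated knockout and WT. The neuron cytoskeleton, synapse and proneural lists lie at the high end in all 3 courses. Cardiac and muscle genes are at 2.75 with Dkk, and fibroblast and matrix genes at 2.79 in the untreated knockout. The choroid plexus list is at 1.63 with Dkk, 0.01 in the untreated knockout and 0.00 in WT.

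Across the 12127 genes, the ratios of the Dkk course had a Pearson correlation of 0.86 with those of the untreated knockout and 0.86 with those of WT, and these last had one of 0.82 with each other. The courses share no library, and genes are not independent replicates. Of the genes higher with Dkk, 1747 were also higher in the untreated knockout, which is 80.1% of the Dkk list and 65.2% of the other list of 2681. With WT 1569 were shared, 71.9% of the Dkk list and 74.0% of the WT list of 2119. Of the lower genes 537 were shared with the untreated knockout (61.5% of the Dkk list and 52.4% of 1025) and 514 with WT (58.9% of the Dkk list and 50.3% of 1022). The direction was the same in both other courses for 2085 of the higher genes (95.6%) and 780 of the lower genes (89.3%).

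A limma fit set the Dkk course against the mean of the other courses. It called 0 of 12912 genes higher and 0 lower at an adjusted p of 0.05. Without the filter on low values it called 130 higher and 93 lower. This fit had 1 residual degree of freedom, from the 2 other courses, and took the lone Dkk course to vary as they did, so 0 calls do not show that the courses were alike. The lowest p in the higher direction belonged to Ttr, Fzd10, Gadd45g, Mir25 and Snord38a, and in the lower direction to Rnu73b, Afp, Mir3064, AF357359 and Sp8. For Afp the difference in this limma fit was -2.93 ± 0.44 (SE; unadjusted p = 0.00088, adjusted p = 1.0), and for Sp8 -1.92 ± 0.36 (SE; unadjusted p = 0.00272, adjusted p = 1.0). The hairpin locus Mir3064 was at 3.58 RPKM on day 10 and 2.8 on day 6 with Dkk. Values of Mir3064 were 20.5 on day 10 and 2.89 on day 6 in knockout cells without Dkk, and 17.1 on day 10 and 1.46 on day 6 in WT. The transcript AF357359 was at 102 RPKM on day 10 and 43.8 on day 6 with Dkk. It was at 122 on day 10 and 12.9 on day 6 in the untreated knockout, and at 252 on day 10 and 13.1 on day 6 in WT.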

How the data were processed

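Total RNA was extracted from differentiating mouse ES cells with the RNeasy Plus Mini Kit, and the SOLiD Total RNA-seq kit and a SOLiD sequencer were used for the libraries, per the labels' protocols. The authors deposited 1 table of RPKM values, rounded to 2 decimals. Reads were counted with HTSeq and the genome build was mm9, per the submitters' processing notes. What aligner, annotation and strand setting were used, and how reads with many matches were handled, is not given in the sources used here. Close paralogs, overlapping genes and antisense genes therefore have uncertain values. Since RPKM is relative to library depth, more of an abundant transcript means lower values elsewhere. The 10 most abundant genes held 5.89% of the summed RPKM on day 10 and 6.49% on day 6 with Dkk.

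Each column was matched to a sample by its title. Ratios are log2(RPKM + 0.5) of day 10 minus day 6, for genes at 1 RPKM or more in either library, and a gene counted as higher or lower at 2-fold. With 1 library a side this comparison has no test. Depth was estimated from the steps of low RPKM values of 3932 genes with a single annotated transcript, where 64.2% to 71.0% of values lay 0.15 read or less from a whole number at the chosen totals, the smallest that fit. Transcript lengths were taken from a different annotation from that of the authors and covered 98.3% of symbols (1909 by an older symbol). Intervals are 95% Clopper-Pearson, and at-least folds use a floor of 3 counts per library. Both cover counting error only.

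Limma 3.58.1 in R 4.3.3 (mean-variance trend, two-sided, Benjamini-Hochberg adjustment over all genes, threshold 0.05) tested the day change over the 3 SFEB courses with condition as a block, on genes that reached 1 RPKM in any of the 6 libraries, and the Dkk course minus the mean of the other courses. Both fits were also run on simulated data with independent noise of the same spread in every library. That simulation cannot check whether the Dkk course varies like the other courses. Since nothing in the labels says that libraries came from separate cultures, p-values measure the spread between these libraries only. Python 3.11.15, scipy 1.17.1 and pandas 2.3.3 did the rest.

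The members, the 38 gene lists (717 names, 7 matched through an older symbol and 1 not listed) and the tests were chosen with earlier results of these data known, so list counts are descriptions. Named genes are the 12 highest and 12 lowest ratios among genes at 5 RPKM or more, the 6 largest ratios of each list, the cell type markers, the Tet genes, the members of the Wnt ligand, feedback and antagonist lists, and up to 10 genes in each direction of a limma fit (5 by lowest p where none passed). Further list members are named where a count or a sentence on a gene family needs them, chosen after their values were seen. Rest, Rbp4, Apoa2 and the miRNA hairpin loci Mir124a-2 and Mir25 were also chosen after their values were seen. Alternatives were other pseudocounts (0.1 and 1), no filter, a filter of 5 RPKM, values rescaled to sum alike (TPM), median centring, a 3-fold threshold, no trend and leaving out each course. Promoter and miRNA sequences came from RefSeq (GRCm38.p6), a later build than that of the table, whose rows carry no coordinates. A few list members are not reported here by name.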

Additional observations from a re-analysis of the deposited data

Results flagged for a closer look

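Opposite 2-fold differences in another course were found for 8 of the genes higher with Dkk in the untreated knockout and for 5 in WT, and for 13 of the lower genes in the untreated knockout and 4 in WT. Those among the list members and other genes named above are given here. None passed the limma test of the difference between courses. Rspo3, which encodes an R-spondin, had a log2 ratio of 2.20 with Dkk against -1.88 in the untreated knockout, from 23.8 RPKM on day 10 and 4.81 RPKM on day 6 with Dkk, and 2.56 on day 10 and 10.8 on day 6 without it. In WT it was at 2.46 on day 10 and 1.55 on day 6, so only the untreated knockout ran the opposite way among the 3 courses.

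Among genes lower with Dkk, 4 list members were at least 2-fold higher on day 10 in the untreated knockout. Pax2 had a log2 ratio of -1.93 with Dkk against 3.12 in the untreated knockout and -0.50 in WT. Pax8 had one of -2.03 with Dkk against 2.25 in the untreated knockout and -0.62 in WT. Apcdd1 had -1.50 with Dkk against 1.23 in the untreated knockout and -1.85 in WT, and Sema3c had -1.03 with Dkk against 1.37 in the untreated knockout and -0.29 in WT. For these 4 genes WT had the same sign as the Dkk course.

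The other 3 are short non-coding loci with few reads. Mir25 had a log2 ratio of 2.88 with Dkk against -1.31 in the untreated knockout and -3.37 in WT. With Dkk it was at 3.17 RPKM on day 10 and 0 RPKM on day 6, from 10 estimated reads on day 10 and none on day 6. Snord38a, a small nucleolar RNA locus, had a log2 ratio of 2.46 with Dkk against -2.11 in WT, and was at 2.26 RPKM on day 10 and 0 RPKM on day 6 with Dkk, from 6 estimated reads on day 10 and none on day 6. Rnu73b, a small RNA locus, had a log2 ratio of -3.16 with Dkk against 1.84 in the untreated knockout and 1.80 in WT. It was at 0 RPKM on day 10 and 3.96 RPKM on day 6 with Dkk, from no read on day 10 and 3 estimated reads on day 6.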

How the results depend on the processing

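The higher genes outnumbered the lower ones in the Dkk course under each alternative run. A 3-fold threshold gave 1122 higher and 254 lower genes, and 1 RPKM in both libraries, chosen after seeing the data, gave 1402 higher and 717 lower. Other pseudocounts, filters, rescaling and median centring kept both counts within 1.5 times. Without the low-value filter, which lets more genes into the fit, limma called 2333 genes as risen and 1298 as fallen over the 3 courses, and 130 higher and 93 lower for the Dkk course minus the others; the cause was not tested. With a whole course left out, the day fit called 3148 to 3735 genes as risen and 2041 to 2367 as fallen. Median centring turned its split to 3158 risen and 3975 fallen. Of 216 list medians under the alternatives, 215 lay inside the binomial interval of the median, which is wide for short lists, but 20 moved by more than 1.5 times and 6 changed sign. Without the filter the median turned to 1.32 for cardiac and muscle genes, 1.20 for transmitter identity, 0.50 for endothelium and blood, 0.49 for neural crest, -0.08 for secreted Wnt antagonists and -0.55 for pluripotency. With a filter of 5 RPKM the primitive streak and early mesoderm median was -2.95, against 0.29, the 1 sign change to a value past 2-fold. Of 3216 values of named genes and list members, 182 moved by more than 1.5 times, 88 with a pseudocount of 0.1, 47 with a pseudocount of 1 and 47 with TPM scaling. None of those past 2-fold changed sign. The limma day test pairs day 10 with day 6 of a course through its block, and the labels give no replicate numbers within a condition and day for any other pairing. The depth of 10500000 reads on day 6 limits what can be said of genes listed at 0 there.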
